A study of Mus musculus with 9 samples.

Results

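The 47 genes described here encode lysosomal hydrolases, lysosomal membrane and cofactor proteins, and subunits of the V-ATPase, the proton pump of the lysosome. They were found by gene symbol in the platform annotation, and for each gene the single-symbol probe set with the highest mean over the 9 arrays was taken. Of the 47, 45 had such a probe set; Cd63 and Atp6v0c had none and were not analysed here. Signals had to reach 50 on 2 or more arrays, which 39 of the 45 and 8716 of 18193 genes did. The 39 are 22 hydrolases (10 of 12 listed glycosidases, 2 of 5 sulfatases, 8 of 8 peptidases and 2 of 2 enzymes that cleave lipids or thioesters), 7 membrane proteins and cofactors, and 10 pump genes. Naglu, Idua, Galns, Sgsh, Arsb and Atp6v0a1 stayed below 50. Just outside the limit was Idua, with a highest signal of 49.7, and just inside was Neu1, at 50 or more on 4 arrays. Fuca2 and Neu1 reached 50 only on arrays of day 1.5 or later. Ctsc and Npc1 reached it before day 1.5 only on the undifferentiated array, which alone would not have passed them. A rise of Fuca2, Neu1, Ctsc and Npc1 was thus in part a condition of being tested, while 34 members were at 50 or more on every array. The choice used symbols and brightness over all arrays and no difference between groups, but the list, with Hexa and Manba as its leading genes, was drawn up with results of these arrays known.

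The study hybridised total RNA of mouse embryonic stem (ES) cells to 9 expression arrays. One array holds undifferentiated cells, kept with leukemia inhibitory factor, serum replacement, a little serum and 1 µg/ml doxycycline, and 8 arrays hold cells taken 0.5, 1.5, 2.5 and 3.5 days (D0.5 to D3.5) into differentiation in serum medium without that factor, where the medium held the same dose of the drug (Dox+) or none (Dox-). The series' design has doxycycline govern a protein kinase A (PKA) made constitutively active, and all 9 arrays come from ES cells of this design; the labels do not give the clone, the promoter or a line without the transgene, nor whether the drug turns the kinase on or off. A doxycycline effect apart from the kinase cannot be told apart here, because no group of cells without the transgene is among those analysed. For every day and medium there is 1 array and no replicate, which limits the precision of every value. The tests compare the media over the 4 days as if days were repeats, and the days over the 2 media likewise, so p-values measure only the spread between these arrays.

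Lysosomes degrade macromolecules with acid hydrolases, most of which are tagged with mannose 6-phosphate in the Golgi and work only at the low pH that the V-ATPase maintains. The pump has a membrane sector, V0, which carries protons, and a cytosolic sector, V1, which hydrolyses ATP. Lysosomal genes can be switched on together by the factors TFEB, TFE3 and MITF, which bind E-box letters in promoters, and in ES cells the export of TFE3 from the nucleus, driven by folliculin, is known to accompany exit from the naive state.

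Signals are array brightness that the authors scaled to an average of 100. Differences were taken as log2(signal + 16), so the change of dim genes is understated. Per array, 41.6% to 44.2% of genes reached 50, and the 3' to 5' signal ratio of Actb, a sign of RNA integrity, was at most 1.98. The ES cell identity matched its markers: the summed signal of 5 pluripotency genes was 9770 in undifferentiated cells, 4534 to 7942 in Dox+ and 1169 to 8122 in Dox-, with the lowest value on D3.5 in Dox-. The 5 mesoderm markers summed to 77.8 in undifferentiated cells, up to 714 in Dox+ and up to 3625 in Dox-. Of 7 macrophage markers, 6 stayed below 50 on every array. The exception, Cd68, itself a lysosomal membrane protein, read 118 in undifferentiated cells, where the 7 together summed to 141, and the 7 summed to 39.5 to 91.4 on the other arrays. Of 7 fibroblast markers 3 stayed below 50 on every array; the highest single signal was 157, of Col1a1 on the D3.5 array without doxycycline.

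Promoter letters are shown because they are the core of the E-box that the factors named above bind. Promoters were RefSeq windows of 250 bases before to 50 after each annotated start (GRCm38.p6), and 40 of the 47 genes had one. The palindrome CACGTG lay in 15 of 40 members (37.5%), in 8.09% of all 27025 genes of the table and in 12.8% of the 7170 tested genes with a window. The longer TCACGTGA, which contains that core and was added after the values were seen, lay in 7 of 40 members (17.5%), against 1.12% and 2.55%. With a further G before and C after, the letters lay in 0 of 40 members, against 0.37% and 0.907%. All 3 forms equal their own reverse complement, so each search covers both strands. Among tested members with a window, CACGTG lay in 13 of 33, which are 8 of 20 hydrolases, 2 of 6 membrane proteins and cofactors and 3 of 7 pump genes; Naglu and Sgsh, which were not tested, held it too. Of the 11 members called higher from D0.5 to D3.5, 9 had a window, 1 of them, Ctsl, held CACGTG (11.1%, close to the share of all tested genes) and 0 held TCACGTGA. A match is a description of letters and not a bound site. The following stretches lie before the start, 5′ to 3′ on the gene's strand, with CACGTG in capitals. The first 6 hold TCACGTGA, which in the other member with it, Atp6v0d1, spans the start itself. Ctsl is the riser with the core, and Lamp1 and Atp6v0b hold several copies, 4 in Lamp1. They lie at chr2:164833741-164833772 (Ctsa, plus strand), chr7:142387900-142387945 (Ctsd, minus), chr2:25356380-25356425 (Dpp7, minus), chrX:134601174-134601252 (Gla, minus), chr8:3500428-3500499 (Mcoln1, plus), chr16:44139365-44139410 (Atp6v1a, minus), chr13:64370731-64370770 (Ctsl, minus), chr8:13159080-13159160 (Lamp1, plus) and chr4:117887330-117887385 (Atp6v0b, minus).
Ctsa: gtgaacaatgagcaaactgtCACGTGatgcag
Ctsd: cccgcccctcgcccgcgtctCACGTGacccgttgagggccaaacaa
Dpp7: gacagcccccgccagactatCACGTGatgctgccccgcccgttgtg
Gla: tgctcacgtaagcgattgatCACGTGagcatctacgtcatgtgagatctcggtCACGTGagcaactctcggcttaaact
Mcoln1: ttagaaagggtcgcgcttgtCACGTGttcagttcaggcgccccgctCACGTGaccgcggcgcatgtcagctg
Atp6v1a: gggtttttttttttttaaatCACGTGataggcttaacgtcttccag
Ctsl: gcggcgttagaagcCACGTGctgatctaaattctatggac
Lamp1: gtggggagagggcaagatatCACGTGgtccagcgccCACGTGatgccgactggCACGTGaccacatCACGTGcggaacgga
Atp6v0b: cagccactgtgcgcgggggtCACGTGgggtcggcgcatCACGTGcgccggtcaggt

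For contrast, the 200 bases before the start are given for the 3 members furthest from 0 in the comparison of D3.5 with D0.5 that had a window and are described next: Hexa, Manba and Ctsc. None of these windows holds CACGTG. They lie at chr9:59539340-59539539 (Hexa, plus strand), chr3:135485411-135485610 (Manba, plus) and chr7:88277885-88278084 (Ctsc, plus).
Hexa: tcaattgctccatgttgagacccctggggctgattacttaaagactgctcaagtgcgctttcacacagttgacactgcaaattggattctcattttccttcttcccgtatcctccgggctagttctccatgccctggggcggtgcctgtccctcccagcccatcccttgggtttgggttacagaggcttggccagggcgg
Manba: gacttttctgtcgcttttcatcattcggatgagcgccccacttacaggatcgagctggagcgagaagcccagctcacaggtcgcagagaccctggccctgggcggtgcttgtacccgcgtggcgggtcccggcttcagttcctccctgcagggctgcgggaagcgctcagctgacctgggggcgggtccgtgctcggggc
Ctsc: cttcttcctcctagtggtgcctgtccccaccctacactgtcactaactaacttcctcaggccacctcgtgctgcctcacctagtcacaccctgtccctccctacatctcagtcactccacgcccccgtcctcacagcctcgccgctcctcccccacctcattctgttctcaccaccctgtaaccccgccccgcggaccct

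Comparing D3.5 with D0.5 over both media, 11 of the 39 members rose and 1 fell. The risers were the glycosidase genes Hexa, Fuca2 and Gusb, the cathepsin genes Ctsc, Ctsl and Ctsz, the ceramidase gene Asah1, the cholesterol export genes Npc1 and Npc2, Lamp2 and the pump accessory gene Atp6ap1, and the gene that fell was Manba. Over all tested genes 11.8% were called higher and 10.2% lower, by limma at an adjusted p under 0.05. The 11 include Fuca2, Ctsc and Npc1, which passed the signal limit only with arrays of D1.5 or later. Their rise was thus in part a condition of being tested. The median difference was 0.34 over the 39 members and 0.02 over all tested genes, and 29 members were positive, beside 51.6% of all tested genes. By class, 7 of 22 hydrolases rose and 1 fell, 3 of 7 membrane proteins and cofactors rose, and 1 of 10 pump genes rose, with medians of 0.45, 0.40 and 0.19. In these bulk samples a change in the share of a cell type and a change of RNA per cell cannot be told apart. Calls depended on the D0.5 arrays, since leaving out either kept only 1 for that day. Calls were then lost among members and among all tested genes alike. The members' median difference was 0.25 without the D0.5 array of Dox+ and 0.42 without that of Dox-. Over all tested genes it was 0.036 and 0.0015. The Actb ratio was 1.70 and 1.74 on D0.5 and 1.63 to 1.98 later, and its part in these values was not tested.

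**Figure D1:**
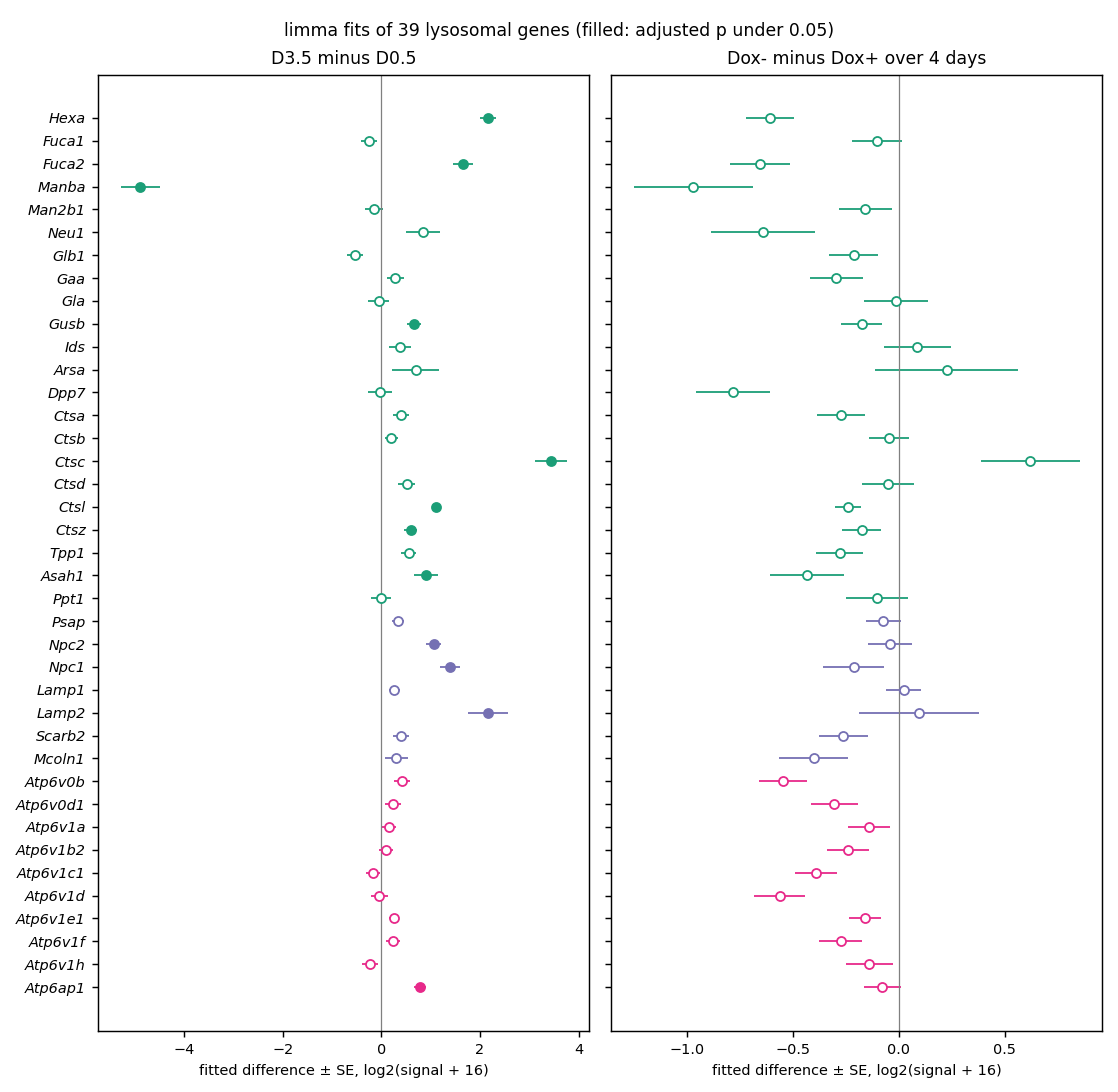
Fitted differences with standard errors (horizontal axes, log2(signal + 16)) for the 39 members, D3.5 minus D0.5 on the left and Dox- minus Dox+ over 4 days on the right; green points are hydrolases, violet membrane proteins and cofactors, pink pump genes, and filled points have a limma adjusted p under 0.05. On the left 12 points are filled, with Ctsc at 3.44 and Manba at -4.89 at the ends, and on the right 0 are filled while 34 of 39 lie below 0.

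Hexa, which encodes the alpha subunit of beta-hexosaminidase, the enzyme that trims the ganglioside GM2, rose in both media. It read 306 in undifferentiated cells, then, from D0.5 to D3.5, 235, 1268, 1155 and 1124 in Dox+ and 176, 690.3, 676 and 833 in Dox-. All 6 arrays from D1.5 on lay above both D0.5 arrays and the undifferentiated one, and the D1.5 signal was 5.4 times that of D0.5 in Dox+ and 3.92 times in Dox-. On D3.5 the ratio was 4.79 in Dox+ and 4.73 in Dox-. The fitted D3.5 minus D0.5 difference was 2.16 ± 0.16 (SE, 2 media; limma adjusted p = 0.00292).

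Manba, which encodes beta-mannosidase, the enzyme that removes the last beta-linked mannose of N-glycans, went the opposite way. Over the same arrays in the same order, its signal was 1351 before differentiation, 1240.0, 164, 57.2 and 47.9 in Dox+, and 1273, 35.6, 21.8 and 12.7 in Dox-. On D0.5 both media were close to the undifferentiated level, and every later array was lower than the one before it in its medium. The D0.5 signal was 7.54 times that of D1.5 in Dox+; in Dox- all 3 later arrays, and in Dox+ that of D3.5, were under 50, so no ratio is given for them. Over 2 media Manba fell by 4.89 ± 0.40 from D0.5 to D3.5 (SE from the spread of all 8 arrays, limma adjusted p = 0.0032). That size rests on these dim signals and was -5.60 at a pseudocount of 1 and -3.83 at 64. Hexa and Manba each have 1 probe set. Of the pluripotency markers, Zfp42 (1645 and 1712 on D0.5, 323 and 136 on D1.5 in Dox+ and Dox-) and Esrrb (238 and 230, then 56.3 and 13.7) moved with Manba. Pou5f1 (2724 and 2614, then 2223 and 2095), Sox2 (2422 and 2822, then 1906 and 1461) and Nanog (914 and 745, then 828 and 685) moved far less. On D3.5 in Dox+ Nanog read 1887. The part of these markers in the result was not tested.

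**Figure D2:**
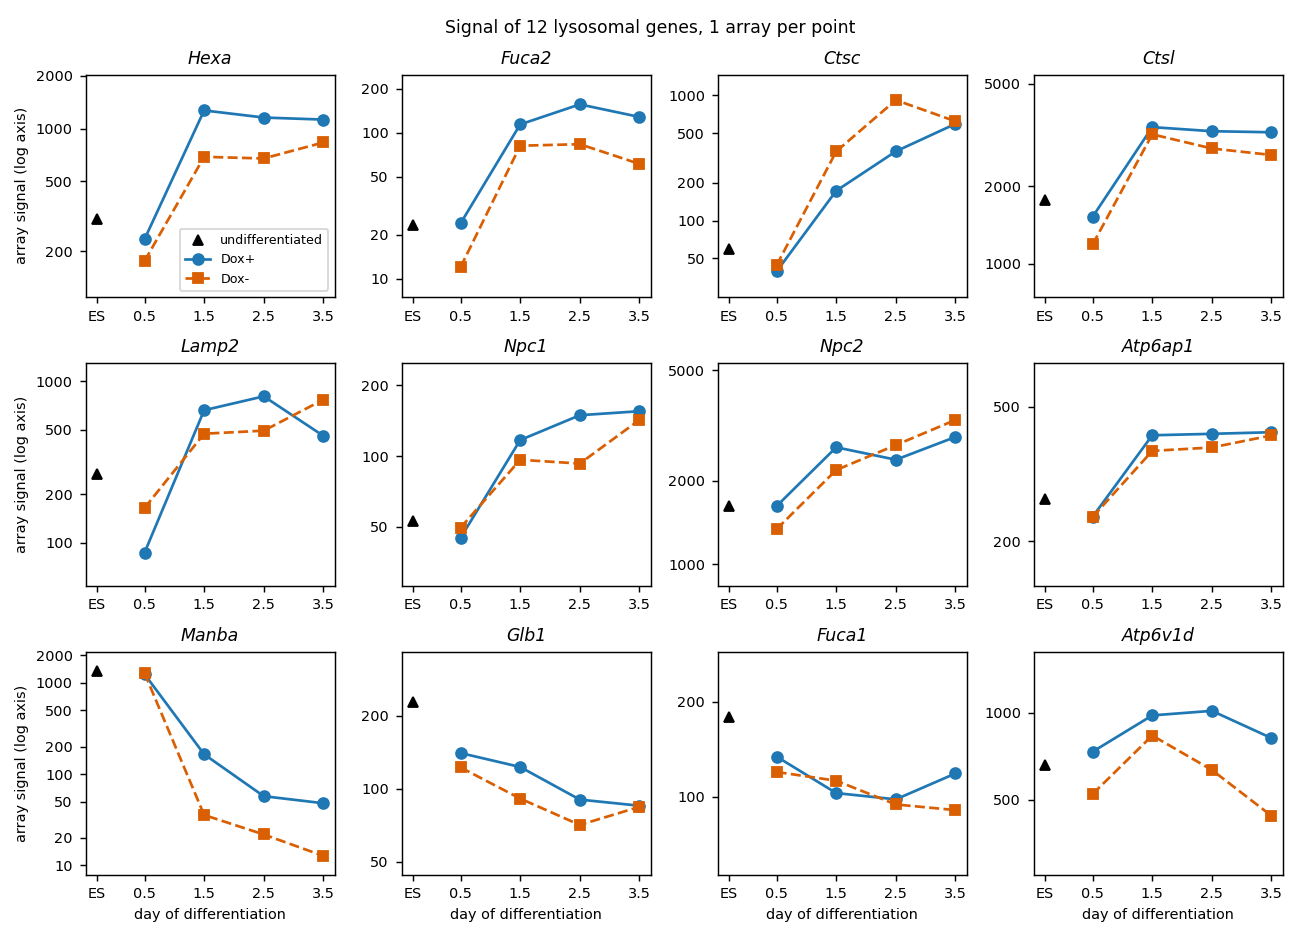
Array signal (vertical log axes) against day of differentiation for 12 members; the triangle is the undifferentiated array (ES), circles are Dox+ and squares Dox-, each point 1 array. Hexa, Fuca2, Ctsl and Atp6ap1 are higher on every array from D1.5 on than on D0.5, Ctsc climbs further to 918 on D2.5 in Dox-, and Manba drops from 1273 to 35.6 between D0.5 and D1.5 in Dox-.

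Fuca2 and Fuca1 encode alpha-fucosidases, the first a secreted form and the second the lysosomal enzyme. Fuca2 read 23.4 in undifferentiated cells, 23.9, 114, 156 and 128 in Dox+ and 12, 81.2, 83.2 and 61.0 in Dox-, so that all later arrays exceeded both D0.5 arrays. Its fitted rise was 1.65 ± 0.20 (limma adjusted p = 0.00605) and 2.31 at a pseudocount of 1, where that of Hexa was 2.25. The rise of Fuca2 was in part a condition of being tested. Other probe sets of Fuca2 were dim, with a mean signal of at most 9.3. Fuca1 read 179.6 in undifferentiated cells, 134, 103, 98.2 and 119 in Dox+ and 119.9, 112.5, 94.6 and 90.8 in Dox-. Its 6 later arrays all lay below both D0.5 arrays, as those of Manba did, but the fitted difference of -0.25 ± 0.17 did not pass (adjusted p = 0.309). Over all tested genes 20% had that order. Glb1, which encodes beta-galactosidase, gave 228 in undifferentiated cells, 140.4, 123, 90.3 and 85.2 in Dox+ and 122.5, 91.2, 71.0 and 84.3 in Dox-, and its difference of -0.55 ± 0.16 had an adjusted p = 0.0591. The highest Glb1 signal was that of undifferentiated cells.

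Gusb, the gene of beta-glucuronidase, rose by 0.66 ± 0.14 (adjusted p = 0.0234), from 126 on D0.5 to 226, 229 and 219 in Dox+ and from 109.9 to 223, 199 and 174 in Dox-, beside 140.0 in undifferentiated cells. Leaving out any D0.5 or D3.5 array, or averaging its probe sets, ended that call. Neu1, the gene of the lysosomal sialidase, read 17.0 in undifferentiated cells and 16.7 to 88.1 afterwards, with a difference of 0.83 ± 0.34 (adjusted p = 0.134). The other glycosidase genes had small differences: Gaa, acid alpha-glucosidase, 0.28; Gla, alpha-galactosidase A, -0.06; and Man2b1, lysosomal alpha-mannosidase, -0.15.

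Among the peptidases Ctsc had the largest rise of all members, 3.44 ± 0.33 (limma adjusted p = 0.0038). The gene passed the signal limit only with arrays of D1.5 or later, so this rise was in part a condition of being tested. Ctsc encodes cathepsin C, a dipeptidyl peptidase that activates granule proteases of immune cells. It read 59.4 in undifferentiated cells, 39.2, 173, 357 and 592 in Dox+ and 43.9, 357, 918 and 621 in Dox-. The D2.5 value without doxycycline was thus its highest, and by D3.5 the media lay within 0.07 of each other on the log2 scale. Other probe sets of the gene had a mean signal of at most 5.0. Of the 7 macrophage markers, 6 stayed at or below 18.6 on every array. Cd68 read 118 in undifferentiated cells, 56.8 and 50.8 on D0.5 in Dox+ and Dox-, and at most 15.8 later. Which cells the Ctsc signal came from was not tested.

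Ctsl, which encodes cathepsin L, a broad endopeptidase, rose by 1.11 ± 0.09 (adjusted p = 0.00318). Its signal was 1770.2 in undifferentiated cells, 1523, 3392, 3271 and 3239.7 in Dox+ and 1189.6, 3181, 2803 and 2645 in Dox-, with every later array above the 3 early ones. Ctsz, a carboxypeptidase, rose by 0.59 ± 0.13 (adjusted p = 0.0278), with 652 in undifferentiated cells, 644, 932, 889.5 and 876 in Dox+ and 529, 866, 692 and 899 in Dox-. Its call was lost without either D0.5 array, either D1.5 array or the D3.5 array of Dox-, and 2 further probe sets gave 0.52 and 0.55.

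The remaining peptidase genes did not pass. Tpp1, a tripeptidyl peptidase, had a difference of 0.55 (adjusted p = 0.0518), Ctsd, the aspartic protease cathepsin D, 0.51, Ctsa, the protective protein of sialidase and beta-galactosidase, 0.39, and Ctsb 0.20. For 7 of the 8 peptidase genes all 6 later arrays nevertheless lay above both D0.5 arrays, the exception being Dpp7, against 21.3% of all tested genes. Dpp7, a dipeptidyl peptidase, read 134 in undifferentiated cells, 97.4, 203, 183 and 110.3 in Dox+ and 75.0, 109, 64.6 and 62.1 in Dox-, so that D3.5 lay within 0.22 (log2) of D0.5 in both media.

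Of the lipid enzymes, Asah1, which encodes acid ceramidase, read 564 in undifferentiated cells, 388, 862, 865 and 783 in Dox+ and 384, 599.9, 416 and 693 in Dox-. Its rise of 0.91 ± 0.25 was the weakest call (adjusted p = 0.046) and was lost in 11 of 15 alternatives. Ppt1, a thioesterase that removes palmitate from proteins, lay between 93.3 and 151 on all arrays, with a difference of -0.01. The 2 sulfatase genes did not pass either. Ids, iduronate 2-sulfatase, read 152 in undifferentiated cells, 199, 202, 163 and 263 in Dox+ and 182, 189.6, 266.5 and 242 in Dox-. Arsa, arylsulfatase A, which acts on sulfatides, read 88.4 in undifferentiated cells, 131, 134, 126 and 119 in Dox+ and 124, 82.8, 126.5 and 383 in Dox-, so that 1 array, D3.5 without doxycycline, stood apart from the other 8. Arsa has 1 probe set here.

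The membrane proteins and cofactors were all positive, 7 of 7, and 3 of them rose. Lamp2, a highly glycosylated protein of the lysosomal membrane that also serves chaperone-mediated autophagy, read 265 in undifferentiated cells, 86.9, 661, 806 and 459 in Dox+ and 164.5, 473, 494 and 769 in Dox-. Its D0.5 signals were the lowest of the series, and its rise was 2.16 ± 0.40 (adjusted p = 0.0165). The next brightest probe set of Lamp2 gave 1.93, but the dimmer ones, with mean signals of 105.6 and 36.0, gave only 0.73 and 0.65. Without either D0.5 array, or without the D3.5 array of Dox-, the call was lost.

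Npc1 and Npc2 pass cholesterol out of the lysosome, Npc2 as the soluble carrier and Npc1 as the membrane protein. Npc1 read 52.7 in undifferentiated cells, 44.8, 117, 149 and 155 in Dox+ and 49.5, 96.4, 92.9 and 143 in Dox-, a rise of 1.39 ± 0.20 (adjusted p = 0.00935). Npc2 read 1618 in undifferentiated cells, 1618, 2636, 2377 and 2872 in Dox+ and 1336, 2183, 2684 and 3308 in Dox-, a rise of 1.06 ± 0.15 (adjusted p = 0.00837). For both genes every array from D1.5 on exceeded the 3 earlier arrays. Leaving out the D0.5 array of Dox- ended both calls, and leaving out that of Dox+ ended the call of Npc1. For Npc1 the rise was in part a condition of being tested.

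Psap, the precursor of the saposins that present lipids to hydrolases, had the same order of arrays with a smaller step: 308 in undifferentiated cells, 360.2, 481, 452 and 459.6 in Dox+ and 335, 449.9, 456 and 426 in Dox-, with a difference of 0.34 ± 0.12 (adjusted p = 0.0908). Lamp1, the sister of Lamp2, read 1578 in undifferentiated cells, 1271, 1707, 1852 and 1653 in Dox+ and 1440.4, 1881, 1631 and 1602 in Dox-, with a difference of 0.26. Scarb2, the receptor that carries beta-glucocerebrosidase to the lysosome, read 516 in undifferentiated cells, 288, 422, 444 and 409 in Dox+ and 280.0, 364, 289.9 and 351 in Dox-. Its undifferentiated signal was the highest of the 9. Mcoln1, a lysosomal calcium channel, read 84.1 in undifferentiated cells, 96.7, 178, 157 and 133 in Dox+ and 98.6, 96.7, 93.8 and 115 in Dox-, with a difference of 0.30 that did not pass.

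Of the pump genes only Atp6ap1, an accessory protein needed for assembly of the pump, passed, with a rise of 0.78 ± 0.12 (adjusted p = 0.0111). It read 267 in undifferentiated cells, 236, 412, 416 and 421 in Dox+ and 236, 370.3, 379 and 411.5 in Dox-. Every later array lay above the 3 early ones, and the call was lost without either D0.5 array. The 7 genes of the V1 sector had differences between -0.24 and 0.25 with a median of 0.09, and limma called 0 of them. At an unadjusted p under 0.05 that count was also 0, beside 20.2% of all tested genes higher and 17.3% lower. Atp6v1e1, of the peripheral stalk, was at the upper end, with 1047 in undifferentiated cells, 1099, 1324, 1321 and 1258 in Dox+ and 982, 1211, 1064.5 and 1224 in Dox-, though a dimmer probe set gave -0.50. At the lower end was Atp6v1h, a regulatory subunit, with 534 in undifferentiated cells, 468, 512, 453.5 and 370.0 in Dox+ and 452, 394, 374 and 406 in Dox-. Atp6v1b2 and Atp6v1f gave 0.09 and 0.23. The V0 genes Atp6v0b and Atp6v0d1 gave 0.41 and 0.23.

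Much of the difference was already measured on D1.5. In a contrast of D1.5 with D0.5 in the same fit, added after the values were seen and sharing the D0.5 arrays, 6 members were called higher and 1 lower, beside 1.73% and 1.32% of all tested genes. These were Hexa (2.12), Fuca2 (1.75), Gusb (0.84), Ctsc (2.21), Ctsl (1.28) and Atp6ap1 (0.69), and Manba (-3.72). For Fuca2 and Ctsc the rise was in part a condition of being tested. The median was 0.46 over the members and 0.01 over all tested genes, and 34 of 39 were positive, 9 of 10 pump genes among them, beside 51.3% of all tested genes. Most or all of these calls were lost without either D0.5 array or either D1.5 array, and so were most or all calls among all tested genes. The members' median was then 0.39 to 0.57, beside -0.02 to 0.03 over all tested genes.

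Within each medium most members were higher on D1.5 than on D0.5, and most were lower over one of the later steps. In Dox+ 36 of 39 members were higher on D1.5, with a median of 0.53, and in Dox- 33 of 39, with a median of 0.41, beside 48.3% and 53.6% of all tested genes, whose medians were -0.02 and 0.03. Pump genes had medians of 0.40 and 0.37 in this step, with 10 of 10 and 9 of 10 higher. From D1.5 to D2.5, 30 of 39 members were lower in Dox-, beside 50.5% of all tested genes, and the pump median was -0.27 there and 0.01 in Dox+. From D2.5 to D3.5, 30 of 39 were lower in Dox+, beside 47.2%, and the pump median was -0.27 there and 0.11 in Dox-. These steps compare single arrays, with no test, and consecutive steps share an array. From D0.5 to D3.5 as single arrays, 7 members were at least 2-fold higher and 1 lower in Dox+, beside 8.33% and 5.2% of all tested genes, and 8 were higher and 1 lower in Dox-, beside 11% and 8.2%. Fuca2, Ctsc and Npc1 were among the higher ones in both media and Neu1 in Dox+. Their rise was in part a condition of being tested.

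**Figure D3:**
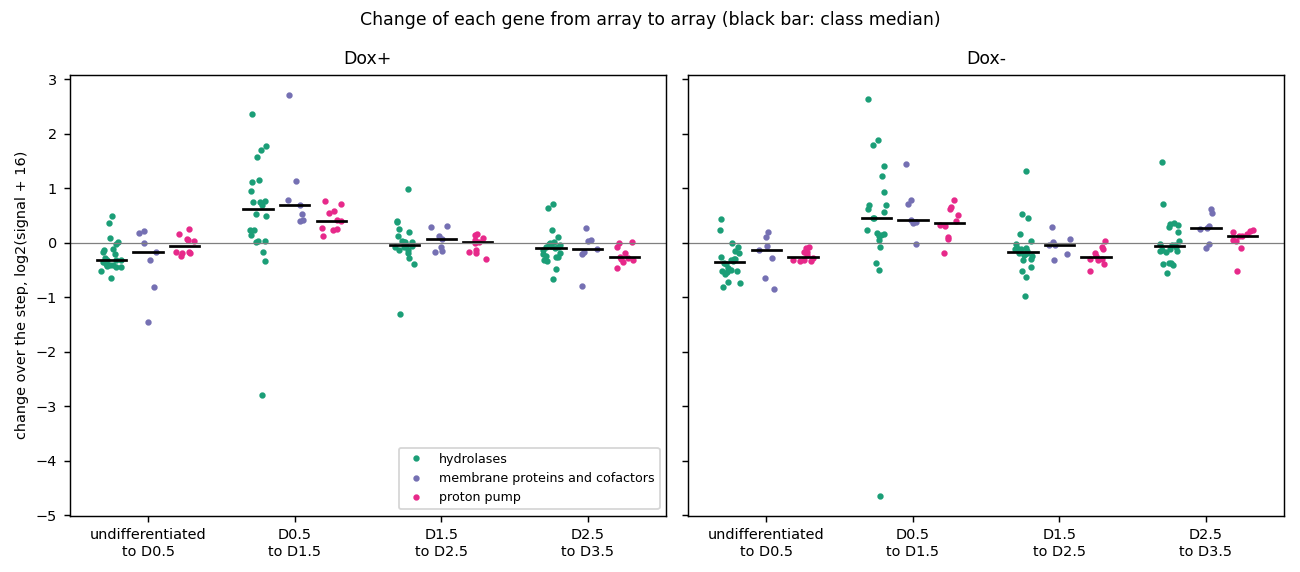
Change of each member over each step (vertical axis, log2(signal + 16)), Dox+ on the left and Dox- on the right; each point is 1 gene, coloured by class, and black bars are class medians. In both media all 3 class medians lie above 0 from D0.5 to D1.5, and the pump median is -0.27 from D2.5 to D3.5 in Dox+ and from D1.5 to D2.5 in Dox-.

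**Figure D4:**
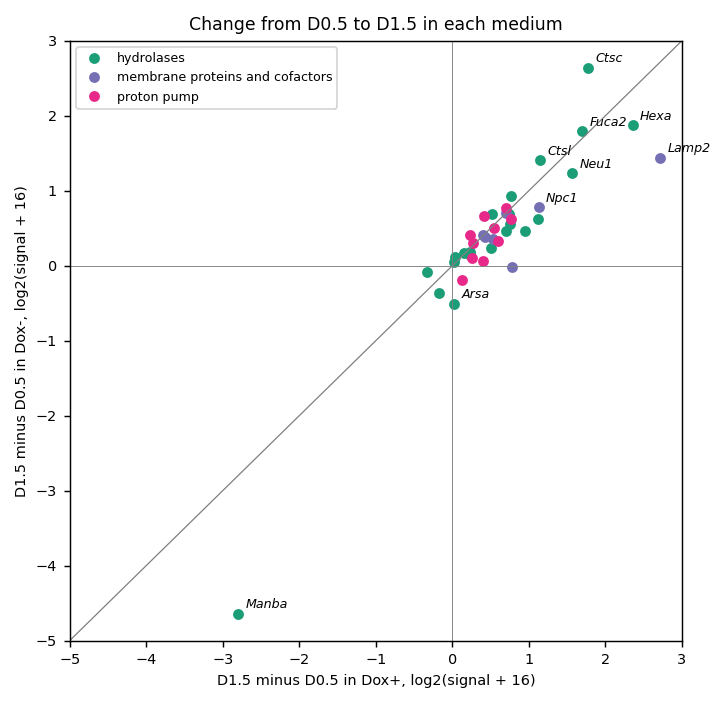
Difference of D1.5 minus D0.5 in Dox+ (horizontal) against the same in Dox- (vertical), log2(signal + 16), for the 39 members coloured by class, with the line of equality in grey. Most points lie at the upper right of 0, Lamp2 (2.72 and 1.44) lies to the right of the line, Ctsc (1.77 and 2.64) above it, and Manba (-2.80 and -4.64) at the lower left.

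Most members read lower on D0.5 than in undifferentiated cells. Against the single undifferentiated array, which both comparisons share, 28 of 39 members were lower on D0.5 in Dox+ (median -0.18) and 35 of 39 in Dox- (median -0.30), beside 44.3% and 49.8% of all tested genes. In Dox- all 10 pump genes were lower, and in Dox+ 5 of 10. Only Lamp2 in Dox+ was at least 2-fold lower (-1.45), beside 1.3% of all tested genes. Other probe sets of Lamp2 read 221, 87.2 and 34.7 in undifferentiated cells and 152, 78.1 and 14.8 on that D0.5 array. On D3.5 the members' medians against undifferentiated cells were 0.26 in Dox+ and 0.03 in Dox-, with 5 members at least 2-fold higher in Dox+ and 6 in Dox-, beside 11.1% and 12.7%, and 2 at least 2-fold lower in each, Manba and Glb1, beside 6.34% and 8.86%. The 5 include Fuca2, Neu1, Ctsc and Npc1, and the 6 include Ctsc and Npc1. These genes passed the signal limit only with arrays of D1.5 or later. For 13 of 39 members all 6 arrays from D1.5 on exceeded the undifferentiated and both D0.5 arrays, beside 18.3% of all tested genes, and these were 7 of 22 hydrolases, 5 of 7 membrane proteins and cofactors and 1 of 10 pump genes. For 22 of 39 the 6 arrays exceeded both D0.5 arrays, beside 21.3%.

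The comparison of the media asks what doxycycline, and the kinase it governs, did to these genes. Over the 4 days 0 of 39 members, and 0% of all tested genes, were called by limma with the day as a block, in either direction. At an unadjusted p under 0.05, 15 members were lower and 1 higher in Dox-, beside 7.47% and 4.3% of all tested genes. The lower count was 16, 9, 8 and 14 without the arrays of D0.5, D1.5, D2.5 and D3.5 in order, and 5 without the day block. Of all tested genes 16.5%, 8.35%, 3.42%, 8.23% and 3.79% then had such a p in either direction, against 11.8% in the main fit. The fitted difference was negative for 34 of 39 members, beside 51.7% of all genes, with a median of -0.21 against -0.01. It was negative for 10 of 10 pump genes (median -0.26), 19 of 22 hydrolases (-0.19) and 5 of 7 membrane proteins and cofactors (-0.07), and 33 of 39 were negative after quantile normalization. All of these values come from the same 8 arrays, and members are not replicates of a medium. The summed mesoderm markers, up to 3625 in Dox- and up to 714 in Dox+, and the summed pluripotency markers, down to 1169 in Dox- and to 4534 in Dox+, also differed between the media. The 8 extraembryonic endoderm markers, 3 of them below 50 on every array, summed to 125 to 200.3 in Dox+ and 129 to 667 in Dox-, and the 7 fibroblast markers to 50.0 to 202 and 40.0 to 381. The limma fit of the media on D2.5 and D3.5 used a grouping chosen with these values known, so its p-values describe these arrays. It called 2.83% of all tested genes higher in Dox- and 4.35% lower. In that fit the mesoderm markers Kdr (3.88, adjusted p = 0.012), Pdgfra (3.75, adjusted p = 0.0137) and Mesp1 (3.48, adjusted p = 0.0465) were higher in Dox-. So were Gata6 (3.01, adjusted p = 0.0116) and Col1a2 (1.02, adjusted p = 0.0459). Sox2 (-2.03, adjusted p = 0.00307) and Dcn (-2.04, adjusted p = 0.0176) were lower. The other tested markers did not pass. The part of these markers in the members' values was not tested.

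Among the 10 pump genes, 8 were lower in Dox- on 4 of 4 days, beside 12.1% of all tested genes, while 11 of 22 hydrolases and 1 of 7 membrane proteins and cofactors, Scarb2, were. Atp6v1d, a subunit of the rotating central stalk, read 659 in undifferentiated cells, 733.5, 981, 1017 and 818 in Dox+ and 523, 835, 634 and 439 in Dox-. Each Dox- array lay below the Dox+ array of its day. The difference over 4 days was -0.56 ± 0.12 (SE from the spread of all 8 arrays, limma adjusted p = 0.416). Its other 2 probe sets gave -0.26 and -0.27.

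Atp6v0b, a proteolipid subunit of the V0 ring, read 139 in undifferentiated cells, 168, 284, 302 and 215 in Dox+ and 112, 202, 161 and 164.5 in Dox-, a difference of -0.55 ± 0.11 (limma adjusted p = 0.416). Its dimmer probe sets, with mean signals of 42.9 and 42.1, gave -0.29 and -0.08. Atp6v1c1, which joins the V1 and V0 sectors, read 1206 in undifferentiated cells, 1235, 1474, 1290.1 and 1136 in Dox+ and 1067, 1145, 792 and 918 in Dox-, a difference of -0.39 ± 0.10 (adjusted p = 0.416). For both genes the lowest of the ratios of the media was on D2.5. Atp6v1a, the catalytic subunit, read 539 in undifferentiated cells, 474, 559, 621 and 501 in Dox+ and 421, 564, 474 and 490.5 in Dox-, with a difference of -0.14. On D1.5 its Dox- signal was slightly above that of Dox+, by 0.012 (log2). Atp6v0d1, Atp6v1b2 and Atp6v1f had differences of -0.30, -0.24 and -0.27, and Atp6ap1 -0.08.

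Among hydrolases Manba had the most negative difference, -0.97 ± 0.28, and then Dpp7 (-0.78 ± 0.17), Fuca2 (-0.65 ± 0.14), Neu1 (-0.64 ± 0.24) and Hexa (-0.61 ± 0.11), each with an adjusted p = 0.416. Dpp7, Fuca2, Neu1 and Hexa were lower in Dox- on 4 of 4 days, and Manba on the 3 days after D0.5. Ctsc was the only member higher in Dox- on 4 of 4 days, beside 8.67% of all tested genes, with 0.62 ± 0.23 (adjusted p = 0.416). The sulfatase genes Arsa and Ids had positive differences of 0.23 and 0.09, each resting on 1 day, D3.5 for Arsa (1.57) and D2.5 for Ids (0.66).

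**Figure D5:**
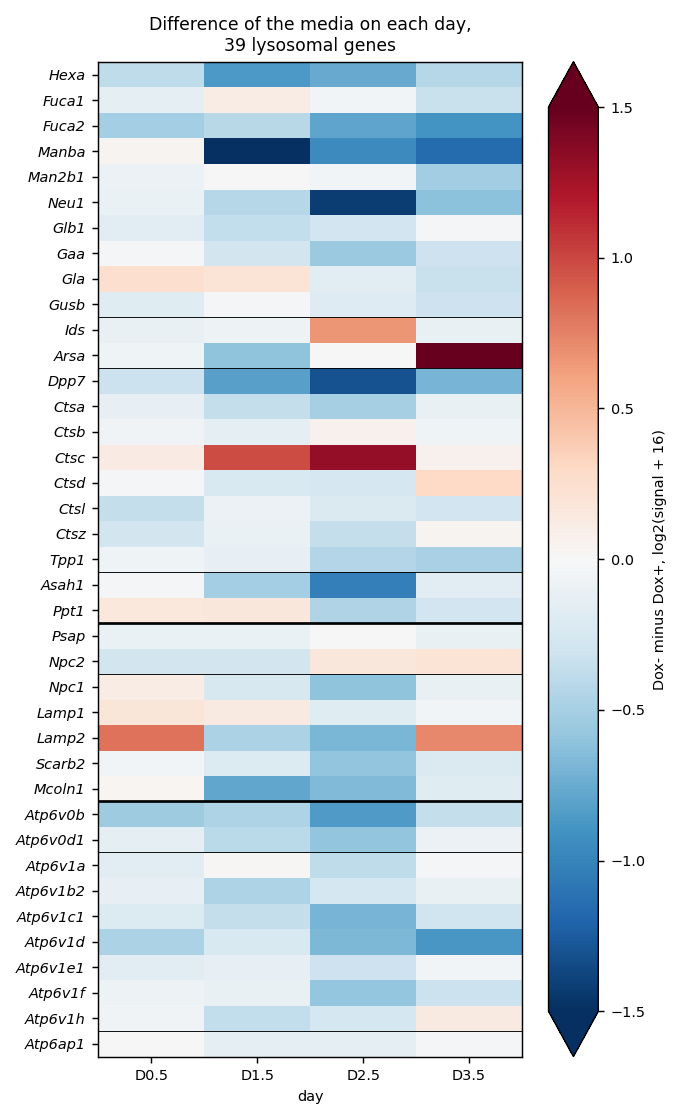
Difference of Dox- minus Dox+ on each day (columns) for the 39 members (lines of the map, grouped by class with thick lines between hydrolases, membrane proteins and cofactors, and pump genes), as log2(signal + 16) on a colour scale that ends at 1.5 each way. Blue, lower in Dox-, prevails in the D2.5 column, where all 10 pump genes are negative, and the reddest cells are Arsa on D3.5 and Ctsc on D2.5.

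Among single days the members' median was furthest from 0 on D2.5. From D0.5 to D3.5 the members' median difference was -0.09, -0.23, -0.38 and -0.17, and that of all tested genes lay between -0.04 and 0.01. Pump genes had medians of -0.15, -0.29, -0.48 and -0.10, with 10, 9, 10 and 9 of 10 negative, beside 58.9%, 49.3%, 48.8% and 49.9% of all tested genes. After quantile normalization 9, 9, 10 and 8 of 10 were negative. Membrane proteins and cofactors had medians of 0.02, -0.24, -0.59 and -0.11. Few members were 2-fold apart: 0 on D0.5, Manba lower on D1.5, Ctsc higher and Neu1, Dpp7 and Asah1 lower on D2.5, and Arsa higher and Manba lower on D3.5. Of all tested genes 0.0229%, 1.42%, 4.45% and 4.8% were at least 2-fold lower on the 4 days in order, and 0.0918%, 1.33%, 3.41% and 4.13% higher. These values compare 1 array with 1 array and carry no test.

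In a fit of the later days D2.5 and D3.5 together, a grouping chosen earlier with these values known, Atp6v1d was lower in Dox-, with a difference of -0.77 ± 0.18 (SE, 2 days; limma adjusted p = 0.0463), the only member called, beside 4.35% of all tested genes lower and 2.83% higher. The call was lost when the arrays of D0.5, D2.5 or D3.5 were left out, without the signal filter and without a trend, and its p describes these arrays. The next lowest adjusted p values of that fit belonged to Atp6v1f (-0.45, 0.0536) and Tpp1 (-0.46, 0.0623). A steady change of the media difference with day was called for 0 of 39 members, beside 0% of all tested genes. At an unadjusted p under 0.05, 2 of them, Arsa and Npc2, had a positive slope, beside 5.73%, and 0 a negative one, beside 6.93%.

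Further lysosomal genes, listed with earlier results known, were compared in the same way. Of 64 listed, 56 had a probe set and 31 were tested, and 10 rose and 2 fell from D0.5 to D3.5, beside 11.8% and 10.2% of all tested genes, with a median of 0.46 against 0.02. The risers were the protease gene Lgmn (1.20), the sphingomyelinase gene Smpd1 (0.78), the transport genes Slc17a5, Lmbrd1, Laptm4a and Laptm4b, Litaf (1.67), the sorting receptor gene Sort1, the pump gene Atp6v1g1 (0.65) and Fnip1 (1.06), a partner of folliculin. Cd68 (-1.49) and the transcription factor gene Mitf (-1.43) fell. Over the 4 days 0 of the 31 were called between the media, and 18 were negative, beside 51.7% of all tested genes, with a median of -0.16. The further pump genes were not all negative as the members were: 3 of 5 were, with a median of -0.05 and Atp6v0a2, a V0 subunit, at 0.37. Of the further hydrolases and cofactors 3 of 8 were negative, with a median of 0.10.

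The 5 tested regulator genes all had negative fitted differences over the 4 days, beside 51.7% of all tested genes. Tfe3 read 138.5 in undifferentiated cells, 167, 200.3, 162 and 148 in Dox+ and 189.5, 202, 92.2 and 73.0 in Dox-, and Flcn, which encodes folliculin, 236 in undifferentiated cells, 188, 478, 605 and 358 in Dox+ and 213, 329, 224 and 221 in Dox-. In the limma fit of the media on D2.5 and D3.5, a grouping chosen with these values known, both were called lower in Dox-. The differences were -0.80 ± 0.14 (adjusted p = 0.0191) and -1.02 ± 0.23 (adjusted p = 0.0445), beside 4.35% of all tested genes called lower. Fnip1 (-0.985, adjusted p = 0.146), Fnip2 (-0.668, adjusted p = 0.126) and Mitf (-0.29, adjusted p = 0.534) did not pass in that fit. On D0.5 Tfe3 and Flcn were higher in Dox-, and on the later days Flcn was lower, Tfe3 from D2.5 on. Tfeb did not reach the signal limit. Protein level, nuclear location and activity of these factors were not measured.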

How the data were processed

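Total RNA of 9 samples was hybridised to single-colour arrays. Per the submitters' processing notes the authors made the signals with GCOS, and the deposited table holds 1 linear intensity per probe set. Its background correction, the version of GCOS and a possible detection filter were not given in the sources used here. Without the highest and lowest 2% of the 45101 probe sets, the mean was 100 on every array, so no further scaling was applied. The platform annotation gave the gene names, with symbols brought up to date through gene IDs (34741 matched); 34945 probe sets had 1 symbol, 932 several and 9224 none, and the 64 control probe sets were left out. Values are log2(signal + 16).

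The 8716 genes that reached a signal of 50 on 2 or more arrays were fitted with limma 3.58.1 in R 4.3.3 (lmFit, eBayes with a trend) on the 8 differentiating arrays: media with the day as a block, days with the medium as a block (3 residual degrees of freedom each), media on D2.5 and D3.5, where differences of the media on D0.5 and D1.5 count as spread, and the product of medium and day. A call is an adjusted p under 0.05 (Benjamini-Hochberg over all tested genes), and single arrays were compared by 2-fold counts. The fits were tested on simulated data with independent noise between arrays. That test cannot show how the fits behave where days or media stand in for repeats. Figures and counts used Python 3.11.15, pandas 2.3.3 and matplotlib 3.10.9.

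The members, the other lists and the shown letters were chosen with earlier results of these data known. All members are named; values on every array are given for Hexa, Manba, called members and, in each class, the 3 furthest up and down in the comparisons of days and of media. Alternatives were pseudocounts of 1 and 64, no signal filter, quantile normalization, the mean of all probe sets, eBayes without a trend, no block and leaving out arrays.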

Additional observations from a re-analysis of the deposited data

Results flagged for a closer look

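For 6 members the D3.5 minus D0.5 difference had opposite signs in the media; each is 1 array against 1, and the signs were compared without a test. In Dox- and Dox+ the differences on the log2(signal + 16) scale were 1.51 and -0.12 for Arsa, -0.37 and 0.07 for Man2b1, -0.35 and 0.24 for Gla, -0.22 and 0.16 for Dpp7, -0.23 and 0.21 for Ppt1, and -0.24 and 0.15 for Atp6v1d. A related test, the steady change of the media difference with day, did not pass for any of the 6, with limma adjusted p = 0.387 for Arsa, 0.626 for Man2b1, 0.460 for Gla, 0.690 for Dpp7, 0.511 for Ppt1 and 0.489 for Atp6v1d. The Arsa value rests on the D3.5 array of Dox-, at 383, and the other 5 pairs are each under 0.6 apart.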

How the results depend on the processing

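The count of 0 members called between the media over 4 days held under every alternative run, and 32 to 35 of 39 fitted differences were negative when a day was left out. For D3.5 minus D0.5, 12 members were called, 11 to 13 under other pseudocounts, no filter, quantile normalization, the mean of all probe sets, no trend or no medium block, and 3 to 12 when an array was left out; no direction reversed. For D1.5 minus D0.5, 7 were called, 4 with the mean of all probe sets and 0 to 8 when an array was left out. For media on D2.5 and D3.5, 1 member was called, 2 at a pseudocount of 64, 0 without the filter, 0 without a trend and 0 to 3 when a day was left out; without the D2.5 arrays the 1 call was of another member, higher in Dox-. Of members at least 2-fold apart between the media, D1.5 had 1, or 2 at a pseudocount of 1; D2.5 had 4, or 1 at a pseudocount of 64 and 1 with the mean of all probe sets; D3.5 had 2, or 1 at a pseudocount of 64. D3.5 against D0.5 in Dox+ gave 8, or 5 with the mean of all probe sets; against undifferentiated cells D0.5 in Dox+ gave 1, or 0 with that mean, and D3.5 in Dox+ gave 7, or 4 at a pseudocount of 64. The cause of these shifts was not tested. The media were paired by day, there being 1 array per group and so no replicate numbers to pair by. Without this day block 0 members were called and 5 had an unadjusted p under 0.05, against 16 with it. Signals near the floor, as of Manba from D1.5 on in Dox-, limit the size of a difference.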
